A study of Mus musculus with 9 samples.

Results

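ATDC5 cells are a clonal mouse line, isolated from a teratocarcinoma culture, that passes through the steps of cartilage formation in a dish. The 3 libraries labelled control, of 9 RNA sequencing libraries in the series, are described here by themselves, and they were chosen by that label alone. The other 6 libraries were labelled acetate or ethanol, 3 each, and the series asked whether acetate carries the effect of ethanol on bone and on chondrocyte differentiation. No gene level in a treated library is compared with that in a control here. All cells shared a medium with 5% serum and 1% penicillin-streptomycin. To it 50 µg/mL ascorbate, 10 mM beta-glycerophosphate and 1X insulin-transferrin-selenium were added. The day of culture at harvest, and whether the controls were given a vehicle, are not known from the sources used here. There was no library from before the additives, so the levels describe a single state and not a course in time. Nothing in the labels says that the 3 controls were separate cultures, so the spread between them may be technical.

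Cartilage that will turn into bone starts as condensed mesenchyme, in which Sox9 with Sox5 and Sox6 switches on the genes of cartilage matrix. This matrix is a mesh of type II, IX and XI collagen filled with aggrecan. Cells then stop dividing, pass through a prehypertrophic phase of Indian hedgehog signalling under the control of Runx2, and become hypertrophic chondrocytes, which make type X collagen and enzymes that mineralise the matrix. Osteoblasts share much of the late programme and lay down type I collagen.

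The deposited table held 26202 genes on the log2 scale, which were turned into CPM (reads of a gene per 1 M reads) with TMM scaling. Levels of different genes are compared only per length. The per-length level is CPM divided by transcript length in kb and scaled to sum to 1 M in every library, and its unit is ppm (parts per 1 M). It was known for 25362 genes, and values below are per-length levels unless CPM is named, given for controls 1, 2 and 3 in that order or as mean ± SD (n = 3). The controls held 38.9, 28.7 and 41.3 M recovered reads, against 28.7 to 41.9 M over the series. A gene was at 1 CPM or more in every control in 12589 cases, and 6801 genes had no read in any of them. Per-length levels of 1, 10 and 100 in every control, used below to mark a low, a middle and a high level, were reached by 49.5%, 36.4% and 7.25% of genes, and the median gene stood at 1.15. A limit of 3 reads, the most that a count of 0 allows, lay at 0.0824, 0.104 and 0.0762 CPM. It covers counting error only.

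The markers of the chondrocyte identity were present in all 3 controls. Col2a1, the main collagen of cartilage, stood at 4554, 3855 and 5042. Acan, the core protein of aggrecan, stood at 379, 306 and 465. Sox9, the master regulator of the lineage, stood at 265, 253 and 304. Each of these exceeded 100 in every library, a level that few genes reached, and control 2 was lowest for all 3. Col10a1, the collagen of hypertrophic cartilage, was also high, at 229, 212 and 209, and below Sox9 in every library. The label of a chondrogenic line thus matched its markers, and the culture held transcripts of early and of late cartilage side by side. On GRCm38, with GENCODE M21 genes, Col2a1 lies at chr15:97975602-98004695, minus strand, Acan at chr7:79053483-79115099, plus strand, Sox9 at chr11:112782224-112787760, plus strand and Col10a1 at chr10:34389981-34397085, plus strand. In such bulk samples a smaller number of cells of a type and less RNA per cell cannot be told apart.

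The highest genes of the controls were led by a translation factor and by bone and cartilage matrix. Eef1a1, which brings tRNA to the ribosome, ranked 1 with 9358 ± 675. Ibsp, bone sialoprotein, an acidic phosphoprotein of mineralised matrix, ranked 2 with 9040.4, 8354 and 9153. Col1a2 and Col1a1, the chains of type I collagen, stood at 6179, 6231 and 6939 and at 4957, 4638 and 5813. Between these lay Sparc, or osteonectin, a collagen- and calcium-binding matrix protein, with 6103 ± 413. Col2a1 followed in rank 6. Its values did not overlap those of Ibsp or Col1a2 in any library, and Col1a1 was 1.09, 1.20 and 1.15 times its level. That ratio was above 1 in every control, although the values of Col1a1 and Col2a1 overlapped between libraries, with means of 5136 ± 607 and 4484 ± 597. With the merged exons of a gene as its length the mean ratio was 1.88, and Ibsp ranked 1, Col1a2 11 and Col2a1 14. Spp1, or osteopontin, another acidic protein of mineralised matrix, ranked 8 with 3783, 3558 and 4493.

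Of the other genes among the 30 highest, Igfbp5, a secreted IGF-binding protein that is common in bone, stood at 3675 ± 442. Bgn, the small proteoglycan biglycan, stood at 3603 ± 109, and Fn1, fibronectin, at 2932 ± 22.2. Serpinh1, the collagen chaperone of the endoplasmic reticulum, stood at 2619.8 ± 13.4. These 4 code for proteins of the matrix, or of its making, other than collagens. Further genes among the 30 were Ftl1 (ferritin light chain), Ppia, B2m, Hsp90ab1, Lgals1, Eef2, Pkm, Tpi1, Ldha and Bsg, between 2603 for Bsg and 4045 for Ftl1. Rps6-ps4, 6820431F20Rik and Gm15501 are annotated as pseudogenes. Their levels of 3709, 2908 and 2853 may include reads of parent genes with nearly the same sequence, since how reads were counted is not known.

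**Figure D1:**
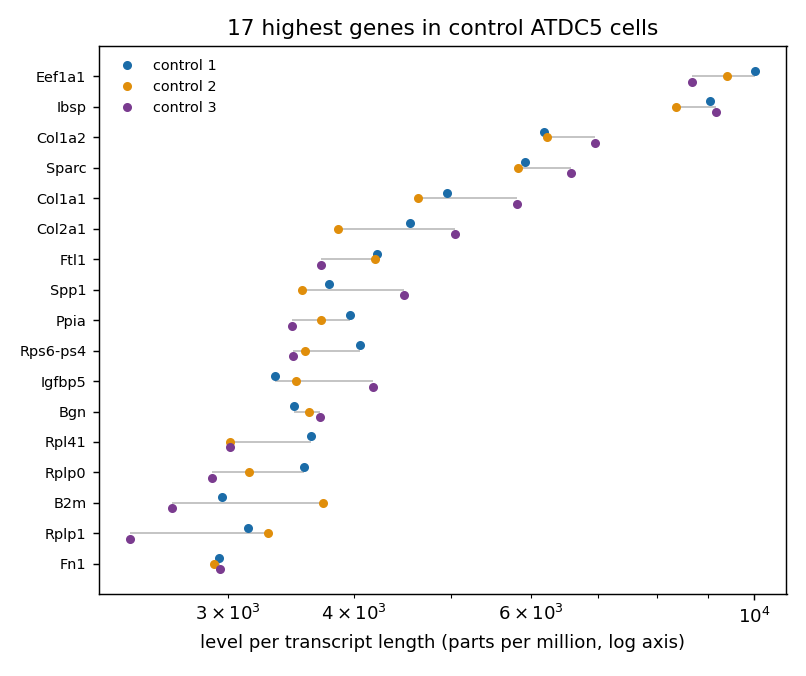
Per-length level, in ppm on a log axis, of the 17 highest genes in the 3 control libraries, 1 point per library and a grey line over their range, ordered by mean. Ibsp, Col1a2, Sparc, Col1a1 and Col2a1 fill ranks 2 to 6, and B2m spreads more widely than Fn1.

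The transcriptome was not dominated by a few genes. The 10 highest genes per length made up 5.58% ± 0.216 of the summed level, the 100 highest 23.5% ± 1.12 and the 1000 highest 56.7% ± 1.63. On the CPM scale, where long genes weigh more, the 10 highest took 7.79% ± 0.301 of the reads. Among the 100 highest genes per length, 32 coded for cytosolic ribosomal proteins, 10 were annotated pseudogenes, 9 belonged to the cytoskeleton, 6 to glycolysis and 5 were collagens. Protein-coding genes made up 98.2% ± 0.0395 of CPM. Genes annotated as processed pseudogenes took 2.76% ± 0.235 of the summed per-length level. Olfactory receptors, a family of 1109 measured genes used in the nose, had no member at 1 or more, and 1033 of them had no read.

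Regulatory sequence was looked up in RefSeq promoters on GRCm38.p6 for 10 genes of cartilage and bone that led the levels or mark a stage. The table held 7 of them, and Col2a1, Col1a1 and Sox9 had no entry. RefSeq and GENCODE place some starts differently. For Ibsp, Col1a2 and Sparc the 150 bases before the RefSeq start lay partly or wholly in GENCODE exons, and these are not shown. The 150 bases before the RefSeq start are shown for the other 4, Spp1 (chr5:104434961-104435110, plus strand), Col10a1 (chr10:34389831-34389980, plus strand), Acan (chr7:79053076-79053225, plus strand) and Alpl (chr4:137796385-137796534, minus strand), written 5′ to 3′. Spp1 and Alpl have more than 1 annotated start, and that farthest upstream was used. Capitals mark matches, on either strand, to the TATA box (TATAAA), the CCAAT box (CCAAT) and the Runx core (ACCACA).
Spp1: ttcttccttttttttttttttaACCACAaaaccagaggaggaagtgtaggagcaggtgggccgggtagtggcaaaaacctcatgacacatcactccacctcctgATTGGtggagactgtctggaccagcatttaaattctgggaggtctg
Col10a1: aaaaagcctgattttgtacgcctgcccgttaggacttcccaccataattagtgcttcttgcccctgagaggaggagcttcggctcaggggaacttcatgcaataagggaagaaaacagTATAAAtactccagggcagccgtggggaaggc
Acan: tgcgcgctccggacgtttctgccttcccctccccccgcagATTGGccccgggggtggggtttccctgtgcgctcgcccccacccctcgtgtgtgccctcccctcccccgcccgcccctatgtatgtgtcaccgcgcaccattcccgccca
Alpl: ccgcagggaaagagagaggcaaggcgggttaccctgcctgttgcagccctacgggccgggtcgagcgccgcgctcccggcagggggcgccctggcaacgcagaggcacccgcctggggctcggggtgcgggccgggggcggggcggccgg
Spp1 held a Runx core 128 bases before the start and a reversed CCAAT box at 46. Col10a1 held a TATA box 32 bases before the start, and Acan a reversed CCAAT box at 110. Alpl held none of the 3 in this window.

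Counted over the whole RefSeq window of 300 bases (250 before to 50 after the start) on either strand, TATAAA was found in 14.4% of the 19012 table genes with a promoter. It was in 8.49% of the 9995 genes at 1 or more in every control and in 15 of the 68 of the 100 highest genes that had a promoter, 22.1%. In the list of hypertrophic genes 7 of 12 with a promoter held it, in that of osteoblast genes 4 of 13 and in that of cartilage matrix genes 2 of 20. TATAAA was also counted only on the strand of the gene and starting 40 to 20 bases before the start. There it was in 2.93% of all genes with a promoter and in 2 of the 68 of the highest genes, 2.94%. At that place it was in 1 of 12 hypertrophic, 1 of 13 osteoblast and 1 of 20 cartilage matrix genes. For every motif a gene counted if any of its promoters held it, so genes with more starts had more chances. GGGCGG, the Sp1 box, was in 48.1% of all genes with a promoter and in 69.3% of those at 1 or more. CCAAT was in 42.0% and 43.6%, and ACCACA in 16.9% and 14.5%. No match printed above overlapped another, and a match describes letters, not a bound factor.

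Collagens held a larger share of the reads than of the per-length level. The 44 chains took 5.37, 5.02 and 5.63% of CPM but 2.41, 2.29 and 2.68% of the summed per-length level, and 31 of them were at 1 or more in every control, with 21 at 10 and 15 at 100. The 3 highest, Col1a2, Col1a1 and Col2a1, form fibrils. Next came Col5a2, of the type V collagen that starts type I fibrils, at 1782 ± 64.6, Col6a1, of the beaded filaments around cells, at 1467 ± 87.4 and Col3a1, another fibril-forming chain, at 1060.0 ± 38.6. Transcripts of chains that join in 1 trimer were not always at the ratio of the chains. Type I collagen has more alpha-1 than alpha-2 chains, but the Col1a2 level was 1.25, 1.34 and 1.19 times that of Col1a1. This order depended on the length used, since with merged exons the mean ratio turned to 0.601. The basement membrane pair Col4a1 and Col4a2 stood at 30.5 ± 3.76 and 35.98 ± 6.38. The lowest collagens included Col14a1, a chain of fibril surfaces in skin and tendon, at 0.111 ± 0.0582.

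**Figure D2:**
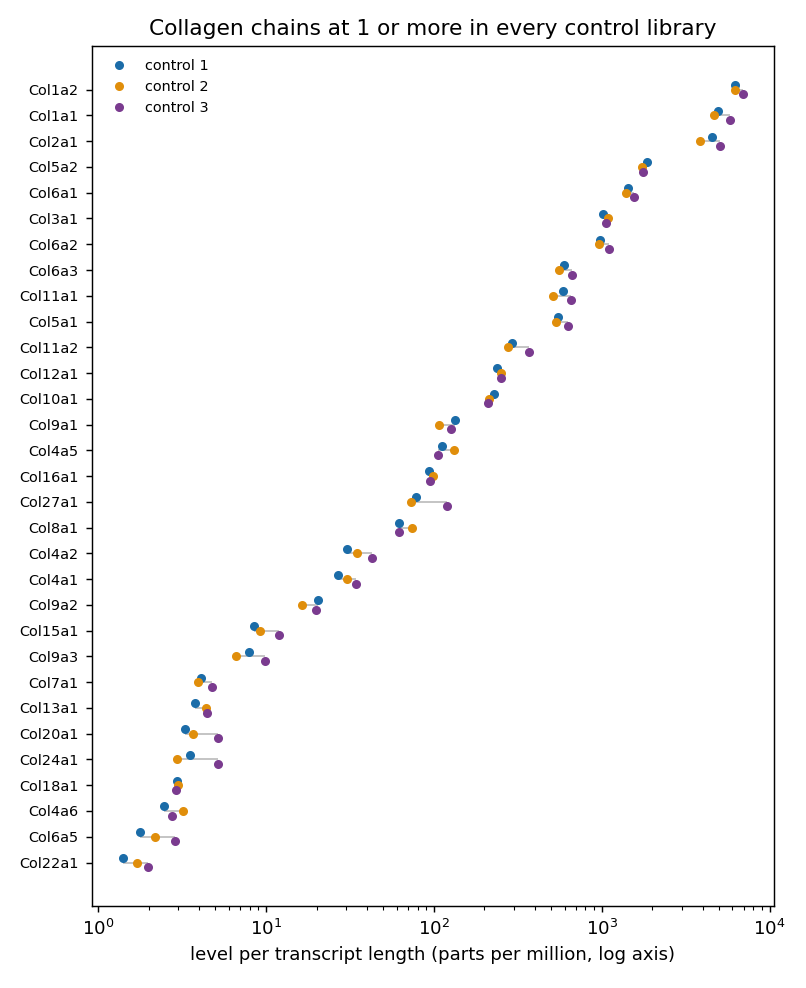
Per-length level, in ppm on a log axis, of the 31 collagen chains at 1 or more in every control library, 1 point per library and a grey line over their range. The 3 highest chains, Col1a2, Col1a1 and Col2a1, reach at least 3855 in every library and lie apart from Col5a2, whose mean is 1782, while chains such as Col27a1 and Col24a1 spread more between libraries.

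Of the 28 cartilage matrix genes, 26 were at 1 or more in every control, 19 at 10 and 11 at 100, with a median of 77.6. Mgp, an inhibitor of cartilage calcification, was second to Col2a1 at 1252, 1319.7 and 1442. Hapln1, the link protein that ties aggrecan to hyaluronan, stood at 414, 387 and 417, close to Acan, and which of these was higher changed between libraries. Fmod and Prelp, small proteoglycans that bind collagen, stood at 204 ± 39.1 and 130.1 ± 15.8, and Susd5, a hyaluronan-binding protein, at 129 ± 9.81.

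The fibril partners of type II collagen were uneven. Col2a1 was 7.78, 7.48 and 7.64 times Col11a1, a chain of the thin core fibril, which stood at 587 ± 71.98. Col11a2 stood at 313 ± 50.3. Type IX collagen, which coats the fibril, has an equal number of 3 chains, but Col9a1 stood at 134, 107 and 127, Col9a2 at 20.3, 16.4 and 19.8 and Col9a3 at 7.95, 6.59 and 9.87. No library overlapped another chain in this order, and Col9a1 was 6.52 ± 0.0866 times Col9a2. Other bridging proteins ranged from Comp at 103 ± 13.5 to Matn3, a matrilin of growth plate cartilage, at 2.31 ± 0.546. Cilp and Cilp2, proteins of the mid zone of joint cartilage, were the lowest, at 0.207 ± 0.136 and 0.478 ± 0.123.

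The enzymes that build the sugar chains of aggrecan were broadly present: 27 of 29 were at 1 or more and 22 at 10, with a median of 32.4. Ugdh, which makes the glucuronic acid donor, led with 559 ± 34.7. Chst11, a sulfotransferase for chondroitin, stood at 106 ± 7.77, and Chsy1, a chondroitin polymerase, at 92.2 ± 9.03. Papss1 and Papss2, which make the sulfate donor, stood at 96.3 and 66.9. The sulfate transporter Slc26a2, whose loss causes a human cartilage dysplasia, stood at 14.99 ± 1.67. Chsy3 had no read in any control.

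Transcription factors of chondrogenesis were led by Sox9. Of 20 regulators, 17 were at 1 or more, 12 at 10 and 3 at 100, with a median of 23.1. Sox6 stood at 35.98, 35.2 and 43.04 and Sox5 at 13.4, 14.2 and 14.99. Sox9 was 7.20 ± 0.148 times its partner Sox6 and 19.3 ± 1.30 times Sox5 (12.99 and 38.3 times with merged exons as length), and the 3 genes did not overlap. Bhlhe40 and Trps1 were the next highest, at 129 ± 14.7 and 112 ± 13.7. Nkx3-2, which in the embryo holds back hypertrophy, stood at 0.465 ± 0.184, and Barx2 was under the 3-read limit in every control.

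Most genes listed for the condensation step were present. 11 of 12 were at 1 or more and 9 at 10, with a median of 77.5. After Fn1 came Itgb1, the shared chain of matrix-binding integrins, with 723 ± 30.8, Sdc3 with 560.5 ± 7.997 and Tnc, or tenascin-C, with 414 ± 44.1. The adhesion gene Ncam1 stood at 74.9 ± 4.08 and Cdh2, N-cadherin, at 34.7 ± 3.73. Cdh11, another cadherin of mesenchyme, was nearly silent at 0.121 ± 0.0244.

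Prehypertrophic genes were present with an uneven feedback loop. 15 of 17 were at 1 or more and 13 at 10, with a median of 47.5. Pth1r, the receptor for PTHrP, stood at 736, 737 and 874, while Pthlh, which codes for its ligand PTHrP, stood at 0.777, 0.338 and 0.368. The receptor thus exceeded the ligand by 946, 2177 and 2372 times, a ratio that is loose because few reads lay behind Pthlh. Ihh, Indian hedgehog, stood at 19.9, 20.5 and 25.3, and no library was below 10. Panx3, a channel protein of prehypertrophic cells, stood at 441 ± 81.3. Runx2, the driver of hypertrophy and of bone, stood at 126, 132 and 155, and Sox9 was 2.10, 1.92 and 1.96 times its level. Mef2c and Fgfr3, which promote hypertrophy and restrain proliferation respectively, stood at 145 ± 17.1 and 139 ± 9.66.

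Around Ihh, members of the hedgehog pathway were split. 10 of 17 genes of the hedgehog and PTHrP loop were at 10 or more. The receptor Ptch1, itself a target, stood at 94.8 ± 9.69, the transducer Smo at 135 ± 12.6 and Gas1, a co-receptor, at 533 ± 166. The target Gli1 stood at 13.9 ± 2.77. The target Hhip, by contrast, was low, at 0.0748 ± 0.0221, and Shh had no read.

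Hypertrophic genes formed the highest of the stage lists by median. All 17 were at 1 or more in every control, 14 at 10 and 10 at 100, with a median of 217, against 1.15 for all genes. The list shares Ibsp and Sp7 with the osteoblast list, and Ibsp, Alpl, Phospho1, Spp1, Enpp1, Ank, Slc20a1 and Slc20a2 with that of mineral genes, so the lists are not independent. Alpl, the phosphatase that frees phosphate for mineral, stood at 812, 765 and 877. Phospho1, which releases phosphate inside matrix vesicles, stood at 666, 647 and 834. Vegfa, which draws blood vessels into hypertrophic cartilage, stood at 428 ± 79.3, and Sp7, or osterix, at 253 ± 24.5.

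Within the hypertrophic list the order was far from even. Ibsp was 39.5, 39.4 and 43.8 times Col10a1, and Col2a1 was 19.9, 18.2 and 24.1 times Col10a1, on average 11.5 times with merged exons as length. Mmp13, the collagenase of terminal hypertrophy, stood at 1.77, 2.23 and 1.87 and Mmp9, a gelatinase of the cartilage to bone front, at 1.30, 1.28 and 1.07. Col10a1 was therefore 112 ± 17.2 times Mmp13. The aggrecanases Adamts4 and Adamts5 stood at 12.7 ± 1.38 and 5.16 ± 0.538. Terminal proteases were present but low where the collagens and mineral genes were high.

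Osteoblast genes did not come as a block. 14 of 19 were at 1 or more, 12 at 10 and 4 at 100, with a median of 44.6. Alpl, Spp1, Sparc and Runx2, each above 100 in every control, were not counted in this list. Its median, and its distance from that of the hypertrophic list, thus depend on how shared genes were assigned. Within the list, Tnfrsf11b, the osteoclast inhibitor osteoprotegerin, came below Ibsp, type I collagen and Sp7, with 98.5 ± 13.6. Omd, or osteomodulin, stood at 94.7 ± 12.4. Bglap, or osteocalcin, the late osteoblast protein, stood at 101, 71.01 and 95.7 and its copy Bglap2 at 98.1, 72.002 and 97.3. These near-identical genes may share reads, so how the sum falls on each is uncertain. Ibsp was 89.2, 118 and 95.7 times Bglap.

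Osteocyte genes were mixed. Dmp1, an acidic phosphoprotein of osteocytes, stood at 61.3, 69.01 and 164, with control 3 apart from the others. Sost, which codes for the Wnt inhibitor sclerostin, stood at 4.76, 5.03 and 4.38. Mepe and Fgf23, other osteocyte genes, stood at 0.290 ± 0.0830 and 0.572 ± 0.292. Tnfsf11, the osteoclast-forming signal RANKL, stood at 0.0428 ± 0.0441, with no control above 3 reads.

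Dmp1, Ibsp, Mepe and Spp1 code for related acidic proteins of mineralised matrix and are neighbours on chromosome 5. On GRCm38 they lie on the plus strand, Dmp1 at chr5:104202613-104214102, Ibsp at chr5:104299171-104311469, Mepe at chr5:104325329-104338611 and Spp1 at chr5:104435118-104441050. Their mean levels, in that order along the chromosome, were 98.03, 8849, 0.290 and 3945. Mepe, between the highest members of the cluster, was thus near the floor, and Spp1 was 0.418, 0.426 and 0.491 times Ibsp. No library changed the order Ibsp, Spp1, Dmp1, Mepe.

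Resting zone and joint surface genes were partly present. 7 of 12 were at 10 or more, with a median of 21.6. Gas1 and the Wnt inhibitor Wif1 were highest, at 533 ± 166 and 178 ± 19.95. Prg4, lubricin of the joint surface, stood at 0.474 ± 0.0811 and Sfrp5 at 0.135 ± 0.0624. The list thus held high signalling genes beside a defining matrix gene near the floor.

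**Figure D3:**
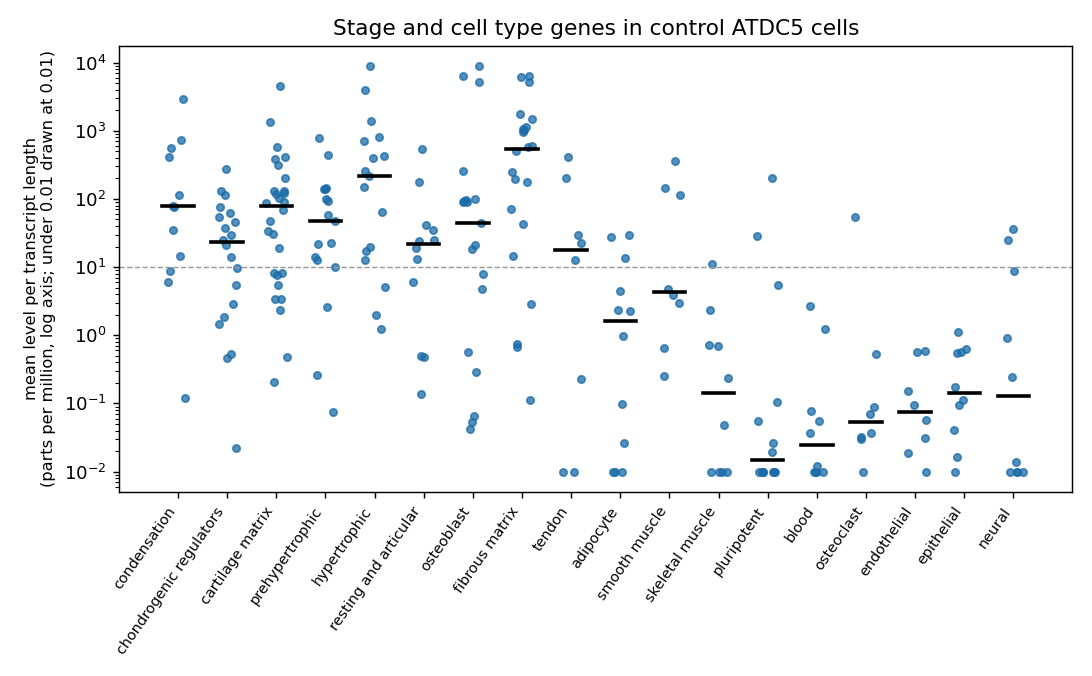
Mean per-length level over the 3 controls, in ppm on a log axis, for the genes of 18 lists of differentiation stages and cell types, 1 point per gene and a bar at the median of each list. Values under 0.01 are drawn at 0.01, the dashed line marks 10, and lists from condensation to fibrous matrix sit above those of blood, osteoclasts, endothelium and epithelium.

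Genes of fibrous tissue had a higher median than those of cartilage. 15 of 22 were at 100 or more, with a median of 535, the highest of the lists of stages and cell types. Postn, periostin, stood at 967 ± 48.4 and S100a4, a calcium-binding protein common in fibroblasts, at 1125 ± 114. Surface markers by which fibroblasts are sorted were low by comparison: Pdgfra stood at 14.7 ± 1.83, Fap at 2.86 ± 0.395, Pdpn at 0.745 ± 0.260 and Thy1 at 0.678 ± 0.233. Pdgfrb was higher, at 71.1 ± 12.9. In the tendon list the regulators Scx and Mkx stood at 29.996 ± 0.643 and 22.9 ± 2.84, but Tnmd, tenomodulin, had no read and Kera, keratocan, was under the 3-read limit.

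Skeletal muscle, blood and vessel genes were mostly silent. In skeletal muscle, no member was at 10 or more in every control, and the lineage factors Myod1, Myf5 and Myog and the enzyme Ckm had no read. Tnnc2, a troponin, was the exception at 11.6, 9.94 and 12.3, with control 2 under 10. Smooth muscle genes were split, with Acta2 at 364 ± 53.003, Smtn at 145 ± 16.7 and Tagln at 115 ± 13.5, but Myh11, its myosin, at 0.255 ± 0.0566. The summed level was 3.09 to 5.14 over 10 blood genes, 1.44 to 1.58 over 8 endothelial genes and 3.09 to 3.50 over 10 epithelial genes. Adgre1, Hbb-bt and Cd3e (blood), Tie1 (endothelium) and Cldn3 (epithelium) had no read, and Cdh5 and Ptprc were under the 3-read limit in every control.

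Osteoclast, fat and neural lists held few genes at 10 or more in every control, 1 of 8, 3 of 12 and 2 of 10. Nfatc1, which also acts outside osteoclasts, stood at 54.9 ± 6.39, while Ctsk, the osteoclast collagenase, stood at 0.534 ± 0.221 and Acp5 was under the 3-read limit. Lpl and Pparg, of fat cells, stood at 29.3 ± 2.97 and 27.6 ± 1.97, whereas Adipoq was under that limit and Cfd, Lep and Cidec had no read. Tubb3 and Map2, of neurons, stood at 36.4 ± 9.63 and 24.8 ± 1.33, and Snap25 had no read. In each case the genes present are also used by other cells, and the other markers named here were at or near 0.

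The line comes from embryonal carcinoma, whose pluripotency genes were almost all silent. Of 14, 7 had no read, namely Pou5f1, Zfp42, Lin28a, Tdgf1, Utf1, Fgf4 and Sall4. Klf4, which is also used in many differentiated cells, stood at 192, 196 and 229. Sox2 stood at 25.9, 30.9 and 29.2 and Nanog at 5.73, 5.56 and 5.22, so these genes of the pluripotent core were read in every control without Pou5f1. Reads of Nanog may include those of its processed pseudogenes.

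Among genes that mark position in the embryo, part of the limb list was present, but not the genes that set a given limb. Prrx1, a factor of limb bud and craniofacial mesenchyme, stood at 196, 231 and 215, with Twist1 at 103 ± 6.68, Prrx2 at 69.7 ± 9.22 and En1 at 32.6 ± 2.99. The factors that set forelimb and hindlimb identity were not detected: Tbx5 had no read, and Tbx4 and Pitx1 were under the 3-read limit in every control. Hand2, a factor of the posterior limb bud, had no read. Of 11 genes of the somite and sclerotome, 1 was at 10 or more, Pax3, with 12.3 ± 1.14, while Pax1 was under the limit. Of 14 cranial neural crest genes 9 were at 1 or more and 3 at 10, Pax3 and Dlx2, with 18.2 ± 1.65, among them, while Alx1, Otx2 and Foxd3 had no read. In the limb list 13 of 17 were at 1 or more and 8 at 10.

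Hox genes, whose paralog number follows position along the body and limb axis, were on up to paralog 10. Of 39 Hox genes, 26 were at 1 or more in every control and 14 at 10. Hoxb9 was the highest at 107, 120.3 and 128, followed by Hoxb7 at 67.7 ± 3.45, Hoxa3 at 27.7 ± 3.11, Hoxd8 at 19.4 ± 2.04, Hoxa6 at 19.4 ± 2.34 and Hoxc4 at 18.7 ± 0.634. None of the 5 genes of paralogs 11 and 12 reached 1. Of paralog 13, only Hoxd13 did, with 1.12 ± 0.135. The clusters differed, with 9 of 11 Hoxa genes, 8 of 10 Hoxb genes, 6 of 9 Hoxc genes and 3 of 9 Hoxd genes at 1 or more.

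**Figure D4:**
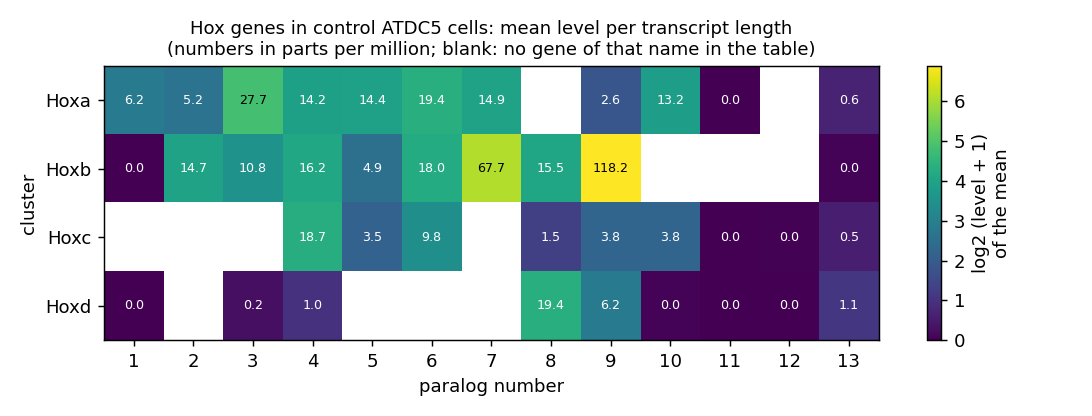
Mean per-length level over the 3 controls of the 39 Hox genes, by cluster (rows) and paralog number (columns). The number in each cell is the level in ppm and the colour its log2 after adding 1, so the bright cells mark Hoxb7 and Hoxb9 and columns 11 to 13 stay dark.

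Both receptors that can bind the insulin of the medium were present. Igf1r, the IGF-I receptor, which also binds insulin at high dose, stood at 28.9, 28.4 and 34.2, and Insr, the insulin receptor, at 12.6, 13.5 and 14.98. Igf1r was 2.30, 2.10 and 2.28 times Insr, without overlap. The cells also expressed ligands of their own: Igf2 stood at 140.4, 133 and 159 and Igf1 at 23.4, 34.95 and 25.98, with no overlap and with Igf2 lowest in control 2, while Ins1 and Ins2 had no read. The mean ratio of Igf2 to Igf1 was 5.30, but 1.496 with the transcript that APPRIS, a database of main isoforms, lists as length. Igfbp5 was 18.2, 17.9 and 24.996 times Igfbp6, the binding protein next in order. The adaptor Irs1 stood at 94.6 ± 3.96 and Irs2 at 8.79 ± 0.829.

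Genes for the use of transferrin and selenium were present. Tfrc, the transferrin receptor, stood at 49.2 ± 6.62, and the ferritin chains were 4045 for Ftl1 and 2003 for Fth1. Trf, transferrin itself, stood at 0.294 ± 0.147, and the iron hormone Hamp had no read. Of 24 genes of proteins that need selenium, 18 were at 10 or more, with a median of 59.7. The glutathione peroxidases Gpx1 and Gpx4 stood at 498 ± 17.04 and 279.8 ± 21.9 and the thioredoxin reductase Txnrd1 at 119 ± 9.37. Gpx2 and Dio1 had no read.

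Ascorbate is the cofactor of the enzymes that hydroxylate collagen, and these were high. 31 of 32 genes of ascorbate uptake and collagen processing were at 1 or more and 17 at 100, with a median of 147. P4hb and P4ha1, subunits of prolyl hydroxylase, stood at 2359 ± 115 and 696 ± 25.9, and P4ha1 was 1.32, 1.42 and 1.26 times P4ha2, on average 3.61 times with merged exons as length. Pcolce, which aids the cleavage of procollagen, stood at 1256 ± 63.7, Lox, which crosslinks collagen, at 499 ± 24.2, and Plod2, a lysyl hydroxylase, at 432 ± 18.01. Of the ascorbate transporters, Slc23a2 stood at 22.01 ± 3.91 and Slc23a1 at 0.235 ± 0.105.

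Beta-glycerophosphate is split by alkaline phosphatase into phosphate for mineral. Of 15 genes of phosphate and mineral, 14 were at 10 or more, with a median of 152. Beside Alpl and Phospho1, Smpd3, which frees phosphocholine, stood at 276 ± 56.9. Ank, which exports the mineral inhibitor pyrophosphate or its source, stood at 152 ± 40.98 and Enpp1, which makes pyrophosphate, at 16.2, 15.98 and 27.5. Alpl, which degrades it, was 50.2, 47.9 and 31.9 times Enpp1. The phosphate carrier Slc20a1 was 3.57, 3.48 and 3.89 times Slc20a2, and Ahsg, the serum mineral inhibitor made by liver, was under the 3-read limit in every control.

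Since the series gave ethanol and acetate to these cells, the enzymes that handle them were read in the controls. Of 24, 13 were at 10 or more, with a median of 18.2. The enzymes by which liver oxidises ethanol were nearly silent: Adh1 stood at 0.132, 0.303 and 0.176 and Cyp2e1 at 0.179, 0.148 and 0.251, and Adh4 had no read. Adh5, an alcohol dehydrogenase found in all tissues that acts mainly on a glutathione adduct of formaldehyde, stood at 105, 99.97 and 99.96. Adh7 stood at 19.2 ± 1.48, and Cat, catalase, which can also oxidise ethanol, at 87.6 ± 0.457.

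Acetaldehyde is oxidised to acetate by aldehyde dehydrogenases. Aldh2, the mitochondrial one, stood at 151, 140.2 and 122.7, and Aldh9a1 at 55.5 ± 2.51. Acetate is joined to coenzyme A by Acss2 in cytosol and nucleus, which stood at 26.4, 23.7 and 23.9, and by Acss1 in mitochondria, which was under the 3-read limit in every control. Acly, which makes the same product from citrate, stood at 146 ± 3.87, and the citrate carrier Slc25a1 at 160.0 ± 5.26. The monocarboxylate carrier Slc16a1, which can carry acetate, stood at 45.6 ± 1.73, and the receptors of short fatty acids, Ffar2 and Ffar3, had no read.

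Genes of glycolysis were high. 21 of 29 genes were at 10 or more and 16 at 100, with a median of 128. Pkm, Tpi1, Ldha, Pgam1 and Pgk1 stood at 2658, 2654, 2642, 2158 and 1917. Ldha, the lactate-making form, was 79.9, 69.2 and 66.9 times Ldhb. Hk1 was 2.85, 2.78 and 2.43 times Hk2, and the glucose carrier Slc2a1 was 25.1, 19.8 and 23.2 times Slc2a3. With merged exons as length the mean ratios were 47.5 for Ldha, 1.46 for Hk1 and 38.6 for Slc2a1, so the order held while the size moved. Of 17 genes that hypoxia-inducible factor switches on or that belong to its pathway, 16 were at 10 or more, with Bnip3 at 629.5 ± 24.5 and Hif1a at 198 ± 4.99, and Car9 stood at 43.4 ± 9.28. The list shares P4ha1, Vegfa, Slc2a1 and Pdk1 with others.

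The controls expressed genes of cell division beside inhibitors of it. All 22 listed genes of cell division were at 10 or more, with a median of 83.4. Mki67, a protein of dividing cells, stood at 92.7, 106 and 89.2, Top2a, a topoisomerase, at 288 ± 29.4 and Pcna, the clamp of replication, at 468 ± 9.01. Of 17 inhibitors, 15 were at 10 or more, with a median of 115. Cdkn2a, the locus of p16 and p19Arf, stood at 801, 779 and 623, Cdkn1a, or p21, at 326, 288 and 377 and Cdkn1c, or p57, of prehypertrophic cells, at 124 ± 8.19. Trp53 stood at 11.5 ± 2.08 and Rb1 at 9.44 ± 1.54, the lowest of the list. Bulk RNA does not show whether the same cells expressed both sets.

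Growth factor pathways had uneven ligands. In the BMP list 13 of 27 genes were at 10 or more: Bmp4 was the highest ligand at 183 ± 12.6, the receptor Bmpr1a stood at 87.6 ± 4.24 and the targets Id1 and Id3 at 251 ± 8.09 and 256 ± 16.6. Bmp2 stood at 0.0662 ± 0.0133, and Bmp7 and Bmpr1b, a receptor of early cartilage, were under the 3-read limit in every control. All 21 TGF-beta genes were at 1 or more and 16 at 10, with Tgfbi at 262 ± 16.4, Tgfb2 at 115 ± 9.90 and Tgfb1 at 109 ± 7.94.

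FGF receptors Fgfr1, Fgfr2 and Fgfr3 stood at 256 ± 33.7, 139.5 ± 17.1 and 139 ± 9.66, and Fgfr1 was 1.59, 1.93 and 1.98 times Fgfr3. Of 22 genes of the Fgf family, which include the intracellular Fgf11, Fgf12, Fgf13 and Fgf14, 3 were at 1 or more, and Fgf7 was the only one at 10, with 97.9 ± 9.34. Fgf18 and Fgf9, ligands of the growth plate, stood at 0.300 ± 0.157 and 0.459 ± 0.0766. Receptors were thus present where their growth plate ligands were nearly silent. In the Wnt list 20 of 42 genes were at 10 or more. Ctnnb1, beta-catenin, stood at 906 ± 34.9 and the secreted inhibitors Frzb and Wif1 at 296 ± 13.96 and 178 ± 19.95, while the highest ligands, Wnt10b and Wnt5a, stood at 75.1 ± 7.39 and 54.95 ± 3.30. Lef1 and Axin2, a partner and a target of beta-catenin, stood at 1.81 ± 0.656 and 6.27 ± 1.43.

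Notch genes were low apart from Rbpj and Notch2. 2 of 13 were at 10 or more in every control, and the median was 1.24, near that of all genes. Rbpj, the DNA-binding effector, stood at 278 ± 18.3 and Notch2 at 33.5 ± 4.91, while the ligands Jag1 and Dll1 stood at 1.52 ± 0.289 and 1.24 ± 0.263. Among integrins, 7 of 18 were at 10 or more, and after Itgb1 came Itgb5 at 199 ± 9.85 and Itga5, a chain of the fibronectin receptor, at 80.1 ± 3.73. Itga10, a chain of the collagen receptor of chondrocytes, stood at 30.7 ± 8.12.

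Among matrix proteases and their inhibitors the inhibitors led. 18 of 31 genes were at 10 or more, with a median of 15.3. Timp3 stood at 868, 959 and 815, Timp1 at 615 ± 91.6 and Timp2 at 597 ± 19.5. The highest proteases were Mmp2 at 578 ± 14.1 and its activator Mmp14 at 545 ± 38.2, and Timp3 was 1.53, 1.68 and 1.37 times Mmp2, an order that merged exons as length removed, with a mean ratio of 0.969. Of 23 genes in the Mmp family 9 were at 1 or more and 4 at 10, and Mmp3, stromelysin, stood at 0.155 ± 0.119.

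Genes of the secretory route, which folds matrix proteins, were all at 10 or more, 21 of 21, with a median of 248. The chaperones Calr and Hsp90b1 stood at 1495 ± 43.2 and 1381 ± 85.5, and Hspa5, or BiP, at 654 ± 27.4. Creb3l1, a membrane-bound factor for secretion in bone cells, stood at 248 ± 45.04, and Atf4 and Ddit3, factors of the stress response, at 397 ± 14.3 and 142 ± 7.56. The cytoskeleton was high as well, with Tubb5 at 1952 ± 111, Vim at 1939 ± 247, Tuba1b at 1895 ± 103 and Actb at 1749.7 ± 26.1.

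Interferon-stimulated genes were well above the median gene in cells that were not given interferon, as far as the labels say. Of 25 genes, 24 were at 10 or more and 13 at 100, with a median of 126. B2m, the light chain of class I molecules, stood at 2957, 3726 and 2638, H2-K1, a heavy chain, at 941, 1014 and 756, Bst2, or tetherin, at 912, 1029.8 and 648 and Isg15 at 439, 480.3 and 315. In each of these control 2 was highest and control 3 lowest. H2-K1 and H2-D1 are similar in sequence and may share reads.

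Noncoding and imprinted genes were split. Malat1, a nuclear RNA, stood at 268 ± 88.99 and the host gene Snhg1 at 239 ± 16.4. Of the imprinted genes, Igf2, Plagl1 and Mest stood at 144, 161 and 153. H19, which lies next to Igf2, stood at 0.258, 0.0791 and 0.172, and Rian and Dlk1, of another imprinted cluster, at 0.0301 and 0.0365, with their neighbour Meg3 under the 3-read limit. High Igf2 with nearly silent H19 was thus seen in every control.

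The 3 controls were alike for most genes. Over the 10935 genes whose mean reached 5 CPM, the coefficient of variation (CV) of CPM had a median of 7.61%, with quartiles at 4.72% and 11.3%, while counting error alone would give 2.58%. It was over 20% in 470 genes, 4.30%, and over 40% in 14. Pairs of libraries correlated across genes at 0.997 (controls 1 and 2), 0.991 (1 and 3) and 0.991 (2 and 3), and 3, 12 and 21 genes differed by more than 2 times. Genes are not independent replicates. Control 3 was the library farthest from the others in 49.4% of genes, and in 31 of the 40 most variable genes. It was the highest library in 30 of these 40.

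The most variable genes were few and of mixed kinds. Shank1, a scaffold of synapses, stood at 4.20, 4.14 and 10.997 CPM. Dmp1 stood at 71.02, 73.4 and 175 CPM, so the 3 controls do not agree on the level of this osteocyte gene. Neat1, a nuclear noncoding RNA, stood at 143, 126 and 264 CPM. In all of these control 3 was highest and the other libraries lay close together. Further genes in this direction included Kif12, Gpr162, Nrbp2, Tle2, Megf10, A630089N07Rik, Prr33 and Slc4a3, with CVs from 39.99% for Slc4a3 to 46.1% for Kif12.

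Genes of immunity varied the other way. H2-L stood at 26.4, 28.7 and 7.38 CPM, Gbp10, an interferon-induced GTPase, at 69.6, 118 and 45.7 CPM and C4b, a complement factor, at 6.05, 7.08 and 2.48 CPM, all lowest in control 3. Over the 24 interferon genes whose mean reached 5 CPM, control 3 was lowest in 24, against 27.9% of all genes, and the median CV was 16.4%. Their median deviation from the mean of the 3 controls was 0.09, 0.18 and -0.28 on the log2(CPM + 1) scale.

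Ribosomal protein genes were highest in control 1 in 78 of 83 cases and lowest in control 3 in 76, against 34.9% and 27.9% of all genes, with median deviations of 0.22, 0.01 and -0.22. Their share of CPM was 3.52, 3.24 and 2.63%, and 9.85, 9.28 and 7.79% of the summed per-length level. Cartilage matrix genes were lowest in control 2 in 18 of 20 cases and glycolytic genes in 20 of 23, against 50.5% of all genes. Prehypertrophic genes were highest in control 3 in 12 of 14 cases, 85.7%, against 50.9% of all genes. Hypertrophic genes were so in 10 of 15, 66.7%, which is nearer that share. The size of these deviations was small beside the levels that set the stage lists apart.

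Length moved with the same libraries. Over 10882 genes, 99.5% of those above, the deviation of a library correlated with log2 transcript length at -0.41, -0.11 and 0.36 in controls 1, 2 and 3, and with GC content at 0.03, -0.21 and 0.12. Ribosomal protein genes are short and Neat1 and Shank1 are long, and the part of length or depth in these differences was not tested. Across the 10935 genes at a mean of 5 CPM, deviations of controls 1, 2 and 3 correlated with those of the same-numbered ethanol libraries at 0.62, 0.40 and 0.70, and of the same-numbered acetate libraries at 0.23, -0.15 and 0.40. With differently numbered libraries the correlations ran from -0.66 to 0.29 for ethanol and from -0.52 to 0.31 for acetate. Deviations were taken from the mean of each group, so those of a gene cancel within it. A positive correlation with 1 library of a group therefore forces a negative one with another, and the 2 sets of values are not independent. Control 2 was thus closer to acetate 1, at 0.31, than to acetate 2. The labels do not say what a shared number stands for.

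**Figure D5:**
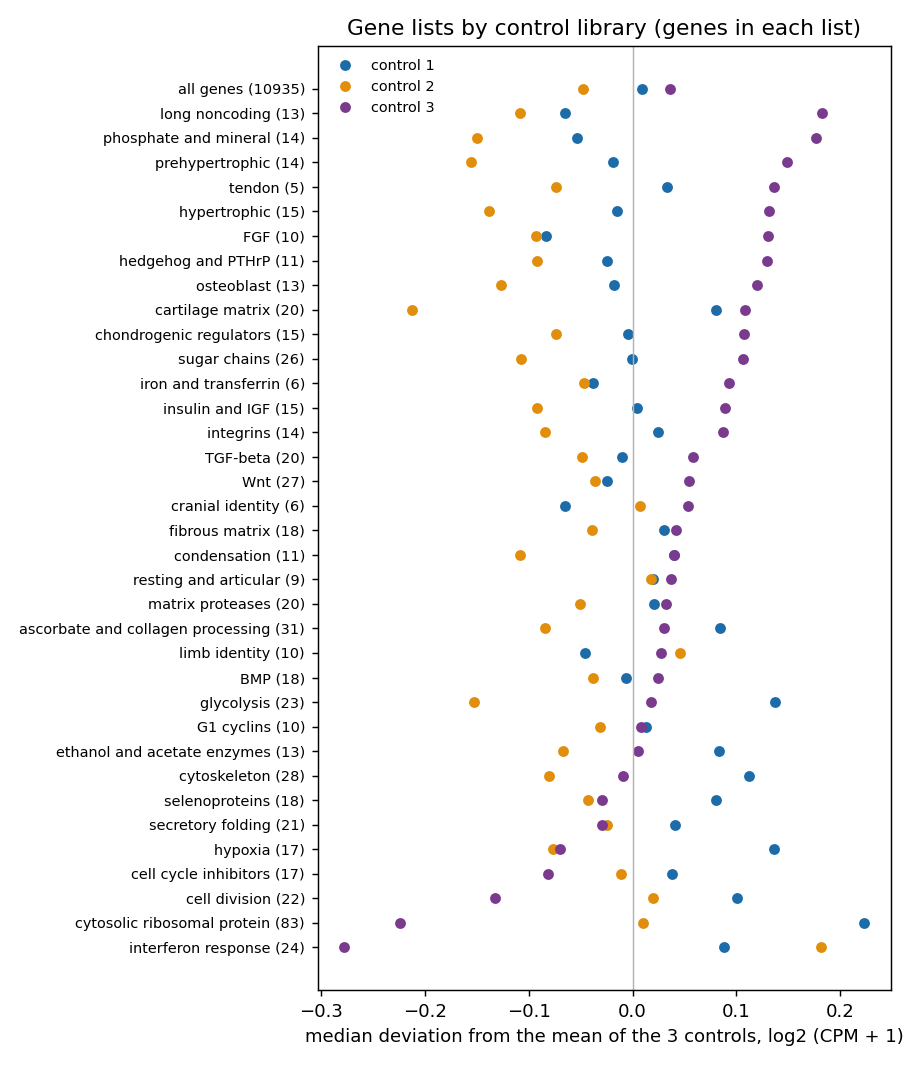
Median deviation of each control library from the mean of the 3, on the log2(CPM + 1) scale, over the genes of each list whose mean reached 5 CPM (number of genes in brackets), ordered by control 3. Control 3 runs from -0.28 for interferon genes to 0.18 for mineral and for long noncoding genes, and control 2 stands at -0.21 for cartilage matrix.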

How the data were processed

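Libraries of ATDC5 RNA were made with a stranded mRNA kit, per the labels' protocols. The labels' text on treatment speaks of livers and HepG2 cells, not of ATDC5, and was set aside. The authors deposited 1 table of log2 values, whose columns sum, after raising 2 to each value, to what TMM-scaled CPM would give. The submitters' processing notes name Partek, Bowtie2 2.2.5, STAR 2.7.8a and mm10. How genes were annotated and reads counted, and whether strand was used, is not given in the sources used here, so a gene, its copies and an antisense partner may share reads.

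The floor of each library, set by an offset of 1e-05 read, was subtracted to give CPM, and it also gave the number of reads. Transcript lengths came from GENCODE M21 on GRCm38 (mm10), and 24919 genes matched by symbol, 443 by a synonym and 840, with 0.281% of CPM, not at all. The length is that of the longest transcript with a CCDS tag, otherwise the longest basic transcript. This reading of the principal transcript was chosen after short APPRIS transcripts were seen to inflate some genes, and the APPRIS length was added as an alternative. Promoters came from RefSeq on GRCm38.p6.

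No test was made, since there is 1 group. Means and SDs are over 3 libraries. The members, the 45 lists and the naming rule were chosen with earlier results of these data known. The rule named the 30 highest genes, up to 8 of the highest members of a list, up to 6 of a family, defining members near 0, the 15 most variable genes and 12 fixed genes (Col2a1, Acan, Sox9, Col10a1, Col1a1, Runx2, Alpl, Bglap, Ihh, Mki67, Insr and Igf1r). Further members, such as Comp, Col9a2, Col9a3, Slc26a2, Dmp1's neighbours, Irs2, Axin2 and partners in ratios, were named after their values were seen. Some genes that the rule named are not reported here. Scripts used Python 3.11.15, pandas 2.3.3, numpy 2.4.6 and matplotlib 3.10.9 and were tested on simulated data.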

Additional observations from a re-analysis of the deposited data

How the results depend on the processing

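Of 220 values recomputed for 28 results under 15 alternatives, 192 stayed within the spread of the controls, or within 1.5 times for counts and ranks, and 28 moved. That spread is 1 SD over the 3 controls. Leaving out 1 control cannot move a mean over the 3 by that much. For shares, levels, CPM values and ratios that alternative could therefore not fail, and its values do not speak for stability. The longest transcript as length gave 9722 for Ibsp and 238 for Col10a1. The merged exons gave a share of 24.6% for the 100 highest genes, levels of 3604 for Col2a1, 12883 for Ibsp and 315 for Col10a1, and a Col1a1 to Col2a1 ratio of 1.88. Of 38 ratios, merged exons moved 14 by more than 1.5 times, the longest transcript 2 and the APPRIS transcript, chosen after seeing the data, 1 (Igf2 to Igf1, from 5.30 to 1.496), and 2 ratios turned. Leaving out 1 control in turn gave a median CV from 4.52% to 7.37%, the lowest without control 3. Each of these CVs comes from 1 library fewer than the main ones, so neither they nor counts of them compare directly. The genes with a CV over 20% then numbered between 137 (without control 3) and 900 (without control 1). With all controls, that count was 1104 with a filter at a mean of 1 CPM and 189 at 20 CPM. Plain CPM, the unsubtracted floor and other limits for detection moved no result. Plain CPM could not change shares, per-length levels, ratios, ranks or list counts, which do not depend on the scale of a library. It could act only on the genes detected, the CPM values and the CV results. Leaving out mitochondrially encoded genes was not run, since the table held none. No paired analysis was possible because the levels come from no test. Genes without a read may still be present below the limit of 3 reads.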
